A study of Homo sapiens with 2 samples.

Results

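Class I antigen presentation genes were followed in HT1080, an established human fibrosarcoma line, after an shRNA against cMyc. The list held 8 genes: B2M, TAPBP, CALR, ERAP1, ERAP2, TAP1, TAP2 and NLRC5. Members were the probe sets of the Affymetrix Human Gene 2.0 ST array that the platform annotation gives the symbol of a listed gene. This found 5 of the 8 genes, through 10 of the 53617 probe sets: 5 for TAPBP, 2 for B2M and 1 each for CALR, ERAP1 and ERAP2. The peptide transporter genes TAP1 and TAP2 and the transactivator gene NLRC5 had no probe set under their symbols and are not analysed here. There were 2 arrays. The control array held RNA of HT1080 cells given virus with a non-targeting shRNA, and the other array RNA of HT1080 cells given virus with the cMyc shRNA. Both cultures were harvested 48 hours after infection. The labels name 1 sample of each, so no difference below has a replicate check, no test was run, and every statement describes these 2 arrays.

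Class I molecules show peptides from inside the cell to CD8+ T cells. Cytosolic peptides enter the endoplasmic reticulum (ER) through the transporter made of the TAP1 and TAP2 proteins. ERAP1 and ERAP2 trim them there, and tapasin (the TAPBP product) and calreticulin (the CALR product) hold the heavy chain and its light chain, beta-2-microglobulin (the B2M product), until a fitting peptide is bound. Interferons raise many of these genes through response elements in their promoters, read by IRF proteins, and NLRC5 acts on class I promoters as a coactivator.

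The promoters of the genes are shown first. The motifs marked in them were chosen with earlier results of these data known. The sequences are RefSeq's, on GRCh38.p14, 5′ to 3′ on the gene's strand. For B2M, TAPBP and CALR the 250 bases before the annotated start are given. They lie at chr15:44711267-44711516 (plus strand), chr6:33314079-33314328 (minus strand) and chr19:12938359-12938608 (plus strand). For ERAP1 and ERAP2, which have 2 listed starts each, 30 bases around a match are given, at chr5:96807924-96807953 (minus strand) and chr5:96876460-96876489 (plus strand). Capitals mark the core of the interferon-stimulated response element (GAAA, any 2 bases, GAAA; here called the ISRE core), CCAAT boxes, the letters bound by NF-Y, and, in CALR, the outer letters of the ER stress response element (CCAAT, any 9 bases, CCACG), each read on both strands. One CCAAT box of CALR lies inside that last element.
B2M: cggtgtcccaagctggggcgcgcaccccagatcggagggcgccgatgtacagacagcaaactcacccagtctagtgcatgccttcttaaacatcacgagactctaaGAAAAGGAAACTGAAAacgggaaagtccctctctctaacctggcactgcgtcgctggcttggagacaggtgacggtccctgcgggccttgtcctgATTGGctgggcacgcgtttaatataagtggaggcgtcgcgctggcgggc
TAPBP: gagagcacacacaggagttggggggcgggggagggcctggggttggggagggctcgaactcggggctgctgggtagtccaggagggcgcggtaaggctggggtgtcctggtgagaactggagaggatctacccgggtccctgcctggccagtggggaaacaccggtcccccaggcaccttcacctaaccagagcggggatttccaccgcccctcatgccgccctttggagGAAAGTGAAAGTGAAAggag
CALR: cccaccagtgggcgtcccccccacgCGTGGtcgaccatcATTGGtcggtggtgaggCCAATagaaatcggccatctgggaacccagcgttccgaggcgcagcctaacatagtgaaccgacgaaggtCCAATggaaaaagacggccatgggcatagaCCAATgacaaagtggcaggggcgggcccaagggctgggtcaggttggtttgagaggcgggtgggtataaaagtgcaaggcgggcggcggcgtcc
ERAP1: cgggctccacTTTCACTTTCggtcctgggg
ERAP2: tcttagaacaGAAAGTGAAAgcaaaagtaa

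The ISRE core was present near a listed start of B2M, TAPBP, ERAP1 and ERAP2 and absent from the CALR window. In B2M 2 overlapping matches began at -144 and -138 from the start, and in TAPBP 2 overlapping matches began at -20 and -14. The ERAP1 match began 3 bases after its first listed start, and the ERAP2 match began at -30 from the second of its starts. The other listed start of each of these genes had no match. TAP1 and TAP2, for which no level is given here, also held matches, which began at -134 and -128 in TAP1 and at -58 in TAP2. NLRC5 was not found in the promoter table. Over all 35116 promoters of 300 bases in that table (250 before and 50 after a start) 3.57% held the ISRE core. Counted by gene, with a match near any listed start, the share was 4.38% of 27305 genes. CALR held 4 CCAAT boxes, which began at -211, -194, -124 and -94, and 1 ER stress response element, which 0.0769% of promoters held. A CCAAT box, present in 34.6% of promoters, was also found in B2M at -49 and in ERAP1 at -154. The E-box bound by MYC and MAX (CACGTG, 7.26% of promoters) did not match in the windows of the 5 genes with values. These are letter matches only, and their bearing on the differences between the arrays was not tested.

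B2M encodes the light chain shared by all classical class I molecules. Its brighter probe set (16800450) had a log2 level of 8.37 with the control shRNA and 9.39 with the cMyc shRNA. The other probe set (16808550) read 6.55 and 7.08. Both read higher on the cMyc shRNA array, with log2 differences (cMyc shRNA minus control) of 1.01, or 2.02-fold, and 0.53, or 1.44-fold. The 2 differences lay 0.49 apart. Among the 337 named genes whose 2 brightest probe sets were at least 0.1 apart in level, 31.2% had a gap at least as wide. Taken over all 416 genes with 2 probe sets above the level filter, the standard deviation (SD) of a single log2 difference was 0.34, and over those 337 it was 0.37. This SD is technical and holds no variation between cultures.

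TAPBP encodes tapasin, which tethers the class I heavy chain to the peptide transporter and edits its peptide cargo. Its 5 probe sets lay between 8.05 and 8.12 with the control shRNA and between 8.59 and 8.69 with the cMyc shRNA. The differences ran from 0.54 to 0.60. The 5 probe sets are not separate measurements. On the cMyc shRNA array 3 of them held the same value to the last deposited digit, and on the control array 2 of them did. The brightest (17040221) read 8.12 and 8.68, a difference of 0.56, or 1.48-fold.

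ERAP1 and ERAP2 encode zinc aminopeptidases that shorten peptides in the ER. ERAP2 (16987531) had a level of 7.37 with the control and 8.16 with the cMyc shRNA, which is a log2 difference of 0.79, or 1.73-fold. ERAP1 (16998368) read 5.22 and 5.76, a difference of 0.54, or 1.46-fold. Both were higher on the cMyc shRNA array, and their differences lay closer together than the technical SD. The genes are neighbours on chromosome 5.

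CALR encodes calreticulin, a calcium-binding lectin chaperone that serves the folding of glycoproteins in general. Its probe set (16858774) had a level of 12.16 with the control and 12.17 with the cMyc shRNA, which is a log2 difference of 0.01. It was the member nearest to 0, and its sign turned under another scaling (-0.03 after median centring). The plot of levels by probe set shows CALR as the only gene whose symbols overlap.

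**Figure D1:**
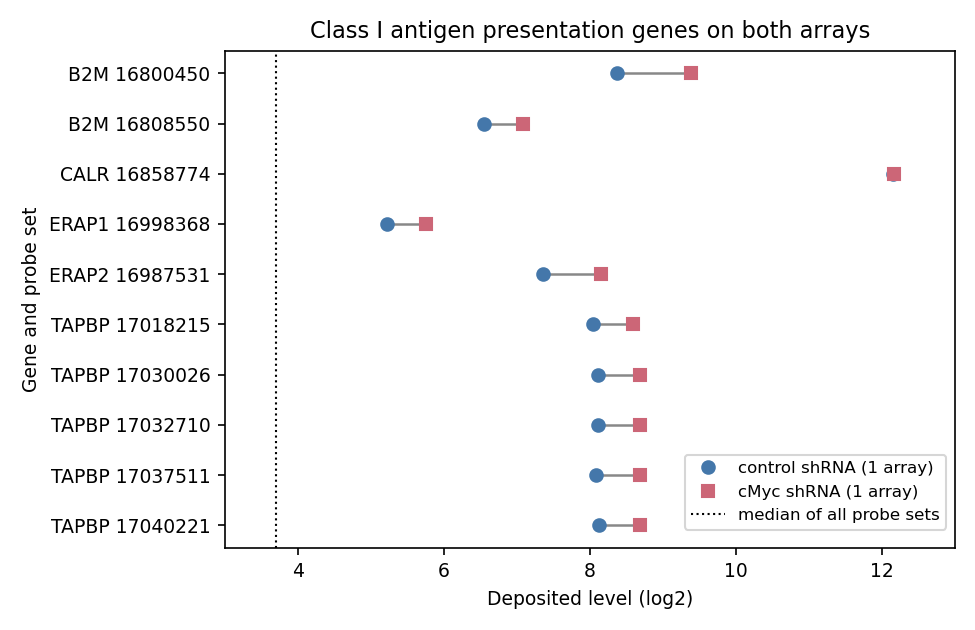
Deposited log2 levels (x axis) of the 10 probe sets of the 5 named genes (y axis) on the control shRNA array (circles) and the cMyc shRNA array (squares), 1 array each. The line joins the 2 readings of a probe set and the dotted line is the median of all probe sets (3.70). The squares of B2M, TAPBP, ERAP1 and ERAP2 lie to the right of their circles, by 0.53 to 1.01, and the symbols of CALR overlap.

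Read against all genes, B2M, ERAP2, TAPBP and ERAP1 stood in the upper part of the differences and CALR in the middle. All 5 were measured, meaning that the mean level of the brightest probe set was at or above the median of all probe sets (3.70), as was true of 10258 of the 14884 named genes. The 2-fold mark upward was reached by 1 of 5 members, B2M, against 2.01% of the measured genes, and at least 2-fold lower were 0 of 5, against 4% of them. B2M passed by a narrow margin. After median centring its difference was 0.97, and the mean of its 2 probe sets was 0.77, so that 0 of 5 members passed under either choice. At least 1.5-fold higher were 2 of 5, B2M and ERAP2, against 8.77%, and at least 1.5-fold lower 0 of 5, against 11.9%. The median difference of the 5 members was 0.56, beside -0.01 over all measured genes, and 4 of the 5 exceeded the technical SD upward, as did 2060 of the 10258. By rank of difference B2M stood at 199 of 10258, ERAP2 at 424, TAPBP at 959, ERAP1 at 1055 and CALR at 4856.

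**Figure D2:**
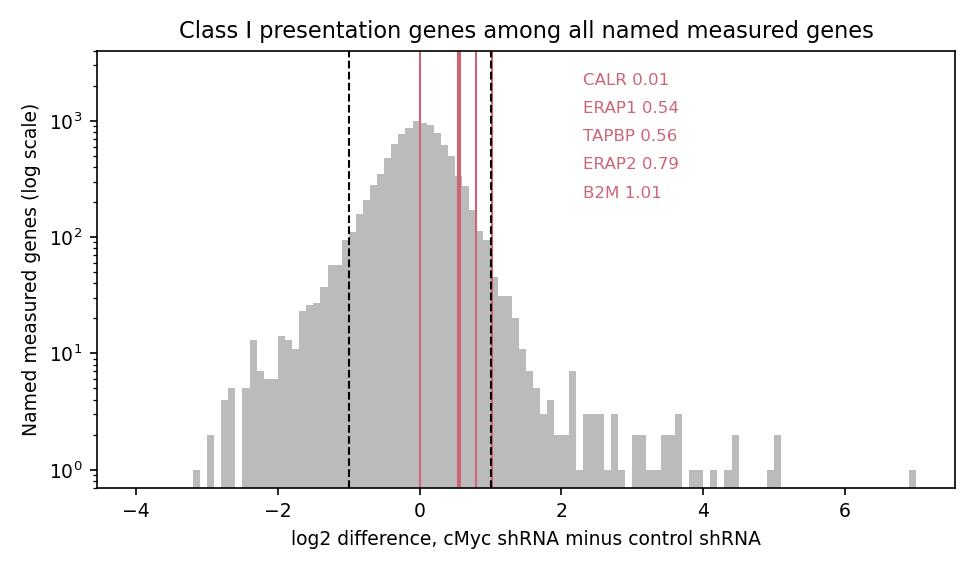
Histogram of the log2 differences (x axis, cMyc shRNA minus control shRNA, 1 array each) of the 10258 named measured genes, with the number of genes on a log scale (y axis). Red lines mark the brightest probe set of each of the 5 class I genes, from CALR at 0.01 to B2M at 1.01, and dashed lines mark 2-fold in either direction.

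Over all measured genes, a larger share of those with the ISRE core near a start was past 2-fold higher with the cMyc shRNA. Of the 10258 measured genes 7900 were in the promoter table. At least 2-fold higher were 33 of the 278 genes with the ISRE core, or 11.9%, and 117 of the 7622 genes without it, or 1.54%. Of these, 12 and 4 stand in the list of antiviral interferon-stimulated genes, and without that list the shares were 7.92% (21 of 265) and 1.48% (113 of 7618). That list has 30 genes and is not a full set of interferon-stimulated genes, so others can remain in these shares. The medians lay closer together, at 0.09 with the match and -0.02 without it. B2M, ERAP2, TAPBP and ERAP1 stood above the median of the genes with the match, and B2M alone among them was also past 2-fold. For the CCAAT box and the E-box the 2-fold higher shares with and without a match were 2.22% and 1.66%, and 1.77% and 1.92%, in that order. The ER stress response element was held by 11 measured genes, of which CALR was the median at 0.01 and 1 was past 2-fold higher (9.09%, against 1.89% of the genes without it). The 2-fold lower shares with and without a match were 2.52% and 4.22% for the ISRE core, and 5.2% and 3.41% for the CCAAT box. They were 4.89% and 4.06% for the E-box, and 0% and 4.17% for the ER stress response element.

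**Figure D3:**
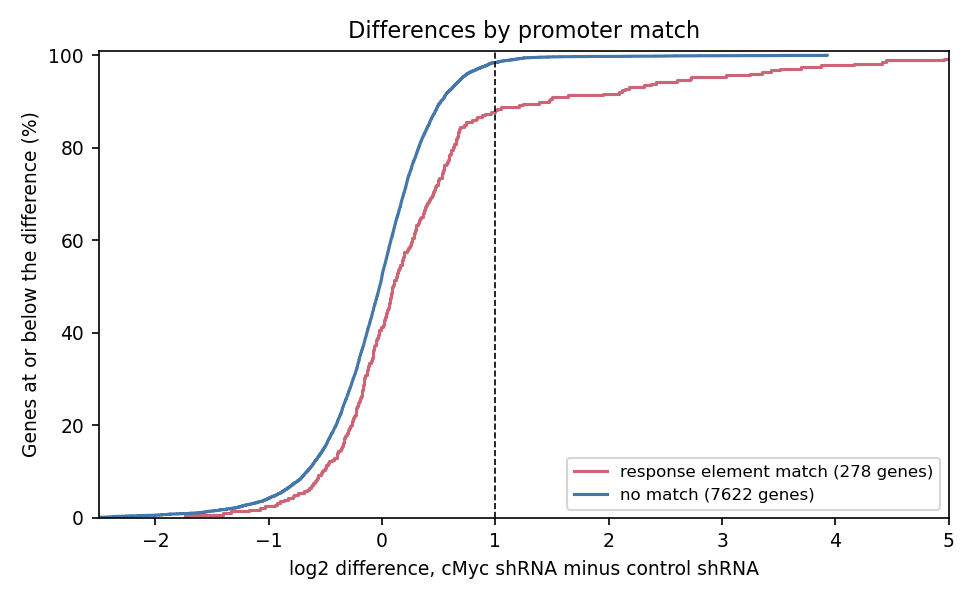
Cumulative share of measured genes (y axis, percent) at or below a log2 difference (x axis, cMyc shRNA minus control shRNA), for 278 genes with the ISRE core in a promoter window and 7622 without. The curve of the matched genes lies to the right, and at the dashed 2-fold line 11.9% of them remain above, against 1.54% of the others.

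In the list of peptide loading complex and quality control genes, the measured genes other than B2M and TAPBP lay closer to 0 than these did. The list had 7 measured genes of 11, with a median of 0.23, and B2M was the 1 past 2-fold. Outside the members, the tapasin relative TAPBPL differed by 0.34, the glucosidase MOGS by 0.23, the folding sensor UGGT1 by 0.12 and the membrane-bound calreticulin relative CANX by -0.04. The differences of CALR and of CANX and UGGT1, its partners in the glycoprotein folding cycle, lay within 1 technical SD of each other. That of MOGS lay within it of each of them too, so this closeness was not particular to the partners. Among 11 measured ER chaperones and foldases 0 were past 2-fold in either direction, with a median of 0.01, from SDF2L1 at -0.99 to SEL1L at 0.44. The lower count was 1 after median centring. Of 6 measured genes of ER calcium stores only ORAI1, a plasma membrane calcium channel, was past 2-fold, at -1.15, the highest was STIM2 at 0.69, and the median was 0.00. SDF4 (0.02), STIM1 (-0.01) and CALU (-0.47) lay between them, and CASQ2 (-0.07) was below the level filter.

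ERAP2 and ERAP1 were the highest of the 9 measured genes of the M1 aminopeptidase family, whose median was -0.03 with 0 past 2-fold in either direction. The 7 others ran from NPEPPS, a cytosolic aminopeptidase, at -0.59 to RNPEPL1 at 0.17. Their close relative LNPEP had no named probe set. Peptidases of the cytosol, which cut peptides before transport, had a median of -0.42 over 8 measured genes. LAP3, a leucine aminopeptidase, was the 1 past 2-fold higher, at 1.49 (6.88 and 8.36), while THOP1, which destroys peptides, lay lowest at -0.97, and the count past 2-fold lower went from 0 to 1 after median centring. The others were NRDC (0.19), BLMH (-0.07), TPP2 and PREP (both -0.42), DPP9 (-0.49) and NPEPPS. Of the 11 proteasome and immunoproteasome genes only the assembly factor POMP was named, at 0.17.

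Heavy chains could not be set beside B2M. Of the 15 listed heavy chains and relatives 6 were named, none of them a classical HLA gene, and only HFE, an iron-regulating relative that pairs with beta-2-microglobulin, was measured, at 0.24. The CD1 genes lay below the level filter, at 0.42 for CD1A, 0.22 for CD1C, -0.07 for CD1B, -0.21 for CD1E and -0.24 for CD1D. Class II and cross presentation genes had 2 named of 16: SEC22B, a vesicle fusion protein, at 0.54, and CTSS, a lysosomal protease, below the filter at 0.24. Of the 19 genes of class I trafficking and turnover 11 were measured and 0 passed 2-fold in either direction, with a median of 0.25, from MARCHF9 and HM13 (both -0.22) to SPPL2A at 0.79. Among 11 measured ligands of T and NK cell receptors the median was 0.35. PVR, a ligand of the receptors DNAM-1 and TIGIT, was past 2-fold lower at -1.07, and PDCD1LG2, a ligand of PD-1, was highest at 0.99. The count past 2-fold higher, 0 as deposited, was 1 after quantile normalization or loess.

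Regulators of class I promoters were read through 8 of 15 listed genes, with 0 past 2-fold and a median of 0.33. IRF1 was highest, with levels of 4.79 under the control and 5.49 under the cMyc shRNA, or 0.70 apart. RFXANK (0.39), RFXAP and IRF8 (both 0.36), RELA (0.29), IRF2 (0.19), CREB1 (0.17) and NFKB1 (-0.02) followed. Of the family of NLRC5 only NLRX1 (0.43), NOD1 (0.06) and NOD2 (-0.27) were named, and of the ABCB transporter family, to which TAP1 and TAP2 belong, 0 of 11.

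Interferon signalling genes had 8 measured members and a median of 0.30, and IRF9, a DNA-binding factor of the interferon response, was the 1 past 2-fold, at 5.44 and 8.01, a difference of 2.57. The others were JAK2 (0.82), IFNGR1 (0.72), IFNGR2 and JAK1 (both 0.30), SOCS1 (0.09), TYK2 (-0.09) and SOCS3 (-0.42). Genes often induced by interferon gamma or IRF1 had 8 measured members, of which GBP3 (1.95), LAP3 (1.49) and UBE2L6 (1.06) were past 2-fold higher, SOCS1 was lowest and the median was 0.70. With no level filter 5 were past 2-fold higher, GBP4 (1.64) and CXCL10 (1.18) being added, and with the filter at percentile 75 the median was 1.27. In the list of antiviral interferon-stimulated genes 20 of 21 measured members were past 2-fold higher, with a median of 3.65, from ISG20 at 0.23 to IFIT1 at 6.90. The differences of B2M, ERAP2, TAPBP and ERAP1 lay between SOCS1 (0.09) and GBP3 (1.95), the ends of the interferon gamma and IRF1 list. The interferon signalling list, from SOCS3 (-0.42) to IRF9 (2.57), spanned them too. They lay above ISG20 and below the 20 antiviral genes past 2-fold, which the 2-fold rule had picked. These ranges do not assign the members to a list.

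**Figure D4:**
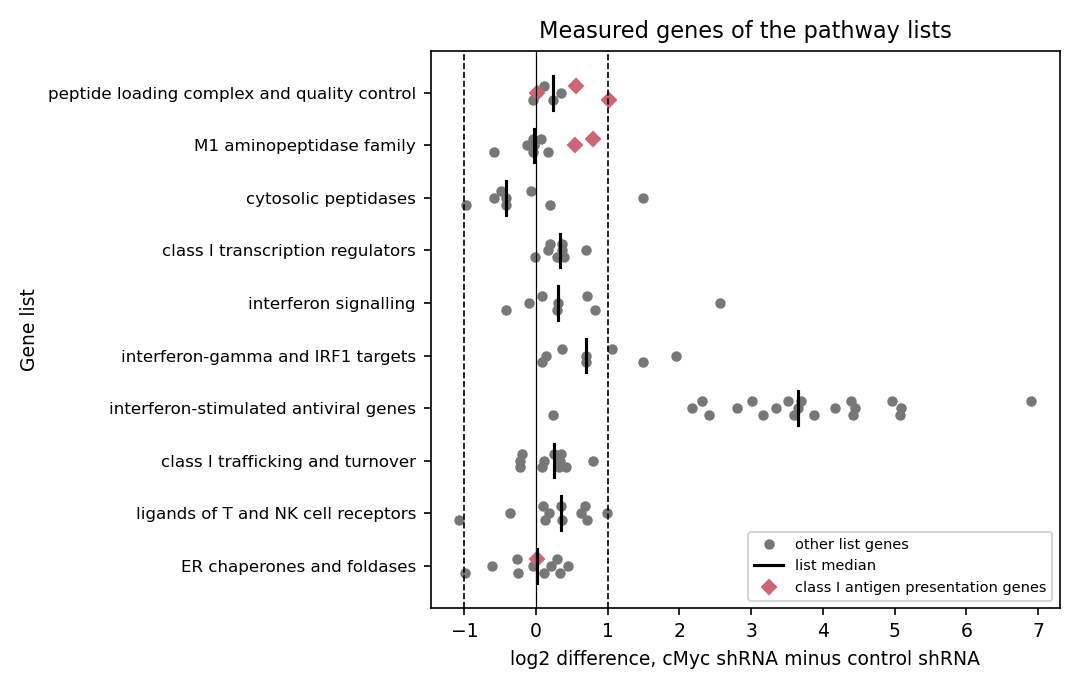
Log2 differences (x axis, cMyc shRNA minus control shRNA, 1 array each) of the measured genes of 10 lists (y axis); a gene can stand in several. Red diamonds are class I presentation genes, grey circles the other list genes, black bars the list medians and dashed lines 2-fold. ERAP1 and ERAP2 lie highest in the M1 family, CALR lies at the median of the ER chaperones, and the antiviral list lies farthest to the right.

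The genes most like each member were taken as the 3 nearest in the plane of the 2 log2 levels, so the likeness rests on 2 arrays. For B2M they were WSB1, PRPF38A and TMEM59, at distances of 0.05 to 0.08. For ERAP2 they were WDR48, GGT3P and HEATR5B (0.02 to 0.06), for ERAP1 CLK4, GHDC and KCTD7 (0.02 to 0.05) and for TAPBP SPAG9, PURPL and TP53I3 (0.02 to 0.04). Those of CALR lay farther off: RPL41 at 0.08, TMSB10 at 0.14 and STC1 at 0.24. Of the adjoining protein-coding genes, TRIM69 beside B2M differed by 0.64, and RGL2 and ZBTB22 beside TAPBP by 0.54 and -0.04.

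The targeted gene MYC had levels of 7.09 (control) and 6.16 (cMyc shRNA) and so was 1.91-fold lower with its shRNA. The array medians were 3.68 and 3.73. Among mesenchymal markers 5 of 10 were named. On the control array FN1 stood at 12.4, VIM at 9.94, CD44 at 9.25, THY1 at 4.50 and TWIST1 at 4.31. They differed by 0.15, -0.59, -0.08, 0.36 and -0.03 in that order. Of 15 leukocyte and antigen presenting cell markers 7 were named, and 5 of them, CD14, CD80, CD86, FLT3 and LYZ, lay below the level filter. Their differences were -0.31, -0.18, -0.11, 0.60 and 0.05 in that order. The 2 above it were CD68, at 10.4 on the control array with a difference of 0.91, and NCAM1, at 0.20. The summed linear level of these 2 was 1458 (control) and 2686 (cMyc shRNA), and the median of the list fell from 0.56 to 0.05 when all 7 were taken. All these markers were read in cultures of an established fibrosarcoma line. Whether their levels bear on the class I differences was not tested. Epithelial markers had 3 measured genes of 5, all lower, with a median of -0.68, or -0.46 with the mean over probe sets. EPCAM, named but below the filter, differed by 0.34. The 3 named endothelial markers also lay below the filter. Fewer cells that express a gene and less of its RNA per cell cannot be told apart in such bulk RNA.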

How the data were processed

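RNA of 2 cultures was read on 2 arrays, 1 per group. The authors deposited 1 log2 value per probe set, made with Affymetrix Expression Console, per the submitters' processing notes; how background was corrected and probes were normalized and summarized is not given in the sources used here. Base 2 was inferred from the range of the values (1.41 to 13.9), and folds assume it. There are no detection calls, and the number of arrays limits the precision.

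Names came from the platform annotation, which gives 1 symbol to 16098 probe sets. The brightest probe set by mean level stood for a gene in counts and medians. With 1 array per group no test was run, and genes were counted by a fixed 2-fold rule. The rule was not calibrated for these arrays. The named genes are the members, MYC, genes of the pathway lists past 2-fold (in the antiviral list given as a count), the highest and lowest of each pathway list, all named genes of pathway lists with at most 8, and the 3 nearest in level. Others (HM13, RNPEPL1, neighbours and markers) were chosen after their values were seen. Members, lists and motifs were chosen with earlier results of these data known. Promoters came from RefSeq (GRCh38.p14) and were matched by symbol; 1 further motif searched is not reported here. Alternatives were 3 scalings, 2 level filters, the mean over probe sets and a 1.5-fold rule; the restriction of the technical SD to probe sets at least 0.1 apart in level and the promoter counts without the antiviral list were added after seeing the data. Calculations used statsmodels 0.14.6, pandas 2.3.3 and numpy 2.4.6 under Python 3.11.15.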

Additional observations from a re-analysis of the deposited data

How the results depend on the processing

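No paired analysis was possible because each group has 1 array. The 10 member differences moved by less than the technical SD of 0.34 under median centring, quantile normalization and loess. Median centring lowers every difference by the same small amount, so its outcome here was fixed in advance. B2M ran from 0.97 to 1.06 on its brighter probe set, ERAP2 from 0.75 to 0.82, ERAP1 from 0.50 to 0.56, TAPBP over its 5 probe sets from 0.49 to 0.64 and CALR from -0.03 to 0.08. The count of members past 2-fold higher was 1 as deposited and 0 with median centring or the mean over probe sets, and 2 members passed 1.5-fold. By construction, the 1.5-fold rule took 900 genes higher and 1224 lower, and filtering on level at percentile 75, with fewer genes tested, took 126 higher in place of 206. Without the antiviral list, left out after seeing the data, 7.92% in place of 11.9% of the genes with the ISRE core were past 2-fold higher. Of 125 list medians under the alternatives 3 moved by at least 0.34. By construction, the medians cannot move under the 1.5-fold rule, and median centring shifts them all alike. Of 250 list counts 20 moved by over 1.5 times or to or from 0, most of them under the 1.5-fold rule.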
